A study of Mus musculus with 6 samples.

Results

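Ion channel genes were examined in mouse germinal vesicle (GV) oocytes that lack Lsd1. The members are the 189 gene symbols, of 23284 in the count files, whose names begin with the root of a channel family: potassium (Kcn), voltage-gated sodium (Scn) and epithelial sodium (Scnn1), voltage-gated calcium (Cacn), transient receptor potential (TRPC, TRPM and TRPV), chloride (Clcn), the intracellular calcium release channels (Itpr and Ryr), the ATP-gated channels (P2rx) and the FXYD regulators of the sodium pump (Fxyd). A name pattern alone decided which gene is a member, but the pattern was set with earlier results of these data known. Lsd1 KO oocytes (n = 3 samples) were compared with Control oocytes (n = 3 samples), all from females of 4 to 6 weeks on a mixed C57BL/6-129 background, and the series describes the samples of each genotype as biological replicates. Both groups came from mice primed with gonadotrophin from pregnant mare's serum (5 IU, 48 h before collection), and every sample pooled 100 fully grown oocytes. How Lsd1 was deleted, the exons removed, the driver of any Cre recombinase and the genotype of the Control animals beyond that label are not stated in the sources used here.

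Ion channels are membrane proteins that let selected ions pass down their gradients, and most are assembled from pore-forming subunits joined by auxiliary subunits that set trafficking and gating. In the mammalian oocyte, calcium enters the cell through T-type calcium channels and TRP channels and fills the endoplasmic reticulum, from which the inositol trisphosphate receptor releases it in the oscillations that follow fertilisation. Potassium channels set the resting membrane potential, and chloride channels and the sodium pump contribute to volume and ion balance. LSD1 is a histone demethylase that removes methyl groups from lysine 4 of histone H3.

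Kdm1a, the gene that encodes LSD1, had 3.77, 2.80 and 3.23 CPM (reads scaled to a common library size) in the Lsd1 KO libraries, against 73.9, 72.5 and 44.4 CPM in the Control libraries, which fits the labels (log2 fold change -4.28 ± 0.27, SE; adjusted p = 4.58e-06, edgeR's quasi-likelihood test, adjusted over all tested genes by the Benjamini-Hochberg method, the source of every adjusted p below unless another test is named). Library totals ran from 10735422 to 13035045 counts, and the 189 members together took 0.116% to 0.125% of them in Lsd1 KO libraries and 0.121% to 0.168% in Control libraries. Control replicate 3 stood apart on the second principal component and Lsd1 KO replicate 2 on the third. All 13 oocyte markers were tested, with 2 higher, 11 not called and a median log2 fold change of -0.21. Their summed level was 34928 to 39467 CPM in Lsd1 KO libraries and 25006 to 28933 CPM in Control libraries, and without Gdf9, one of the 2, it was 20446 to 23097 CPM in Lsd1 KO libraries and 17990.0 to 23364 CPM in Control libraries. Markers of other ovarian cells were also present. Summed granulosa and cumulus markers were 422 to 484 CPM in Lsd1 KO libraries and 123 to 155 CPM in Control libraries, with 4 of the 9 tested higher and 1 lower. Without Cyp19a1 that sum overlapped between groups, at 79.5 to 183 CPM in Lsd1 KO libraries and 91.1 to 106 CPM in Control libraries. Nr5a2, the 1 lower marker, made up most of that Control sum, at 67.5, 73.0 and 67.7 CPM in the Control libraries. It had 25.7, 27.1 and 33.2 CPM in the Lsd1 KO libraries. Ptgs2 was also higher, at a mean of 18.7 CPM in Lsd1 KO oocytes and 1.83 CPM in Control. The other higher markers, Inha and Gja1, overlapped between groups. Blood and immune markers summed to 168.5, 9.74 and 114 CPM in the Lsd1 KO libraries and 43.0, 5.88 and 43.8 CPM in the Control libraries, with none of the 9 tested passing the threshold. In bulk samples, fewer cells of a type and less RNA per cell cannot be told apart.

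Most channel genes had few or no reads in these oocytes. Among those that could be tested, 2 of 30 potassium members rose and 6 fell, while 3 of 14 TRP members rose and none fell. The shares called, 26.7% of potassium and 21.4% of TRP members, were near the 21.3% of all genes tested. Of the 189 members, 28 had no count in any library, 85 had counts too low for the test, and 76 were tested. Of the 76, 11 were higher and 9 were lower in Lsd1 KO, or 26.3%. Over all 12935 genes tested the share was 21.3%, with 11% higher and 10.3% lower, so the members as a whole were called about as often as other genes. The median log2 fold change was -0.16 over the tested members and -0.01 over all genes tested. The 3 Lsd1 KO libraries lay wholly above the 3 Control libraries for 15 members and wholly below for 15, or 30 of 76, against a background of 38.7% of all genes tested.

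By ion, the direction of the fold changes was uneven. Of 30 potassium members tested, 22 had a negative log2 fold change, with a median of -0.50. The TRP members lay mostly on the other side, with 11 of 14 fold changes positive and a median of 0.66. No test of the difference between ion classes was made. Calcium channel members gave 1 higher and 2 lower of 12, the release channels 1 higher of 6, sodium channel members 2 higher and 1 lower of 5, and both tested FXYD members were higher. None of the 6 tested chloride members and not the single tested ATP-gated member passed the threshold. With 1 library left out, 1 to 3 potassium members rose, with 1 when replicate 3 of Lsd1 KO was left out and 3 when replicate 2 of Lsd1 KO or replicate 3 of Control was. In those fits 3 to 5 potassium members fell, with 3 when replicate 2 of Control was left out and 4 when replicate 1 or 3 of Lsd1 KO was. Of the TRP members 1 to 3 rose and none fell, with 1 when replicate 3 of Lsd1 KO was left out and 2 when replicate 1 or 2 of Lsd1 KO or replicate 1 or 3 of Control was. Over all members, such fits gave 6 to 12 members higher and 4 to 7 lower. The count of higher members was 7 with replicate 1 of Lsd1 KO left out, 6 with replicate 3 of Lsd1 KO and 7 with replicate 1 of Control left out, and that of lower members was 6, 5 and 4 with replicate 1 of Lsd1 KO, replicate 3 of Lsd1 KO and replicate 2 of Control left out.

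**Figure D1:**
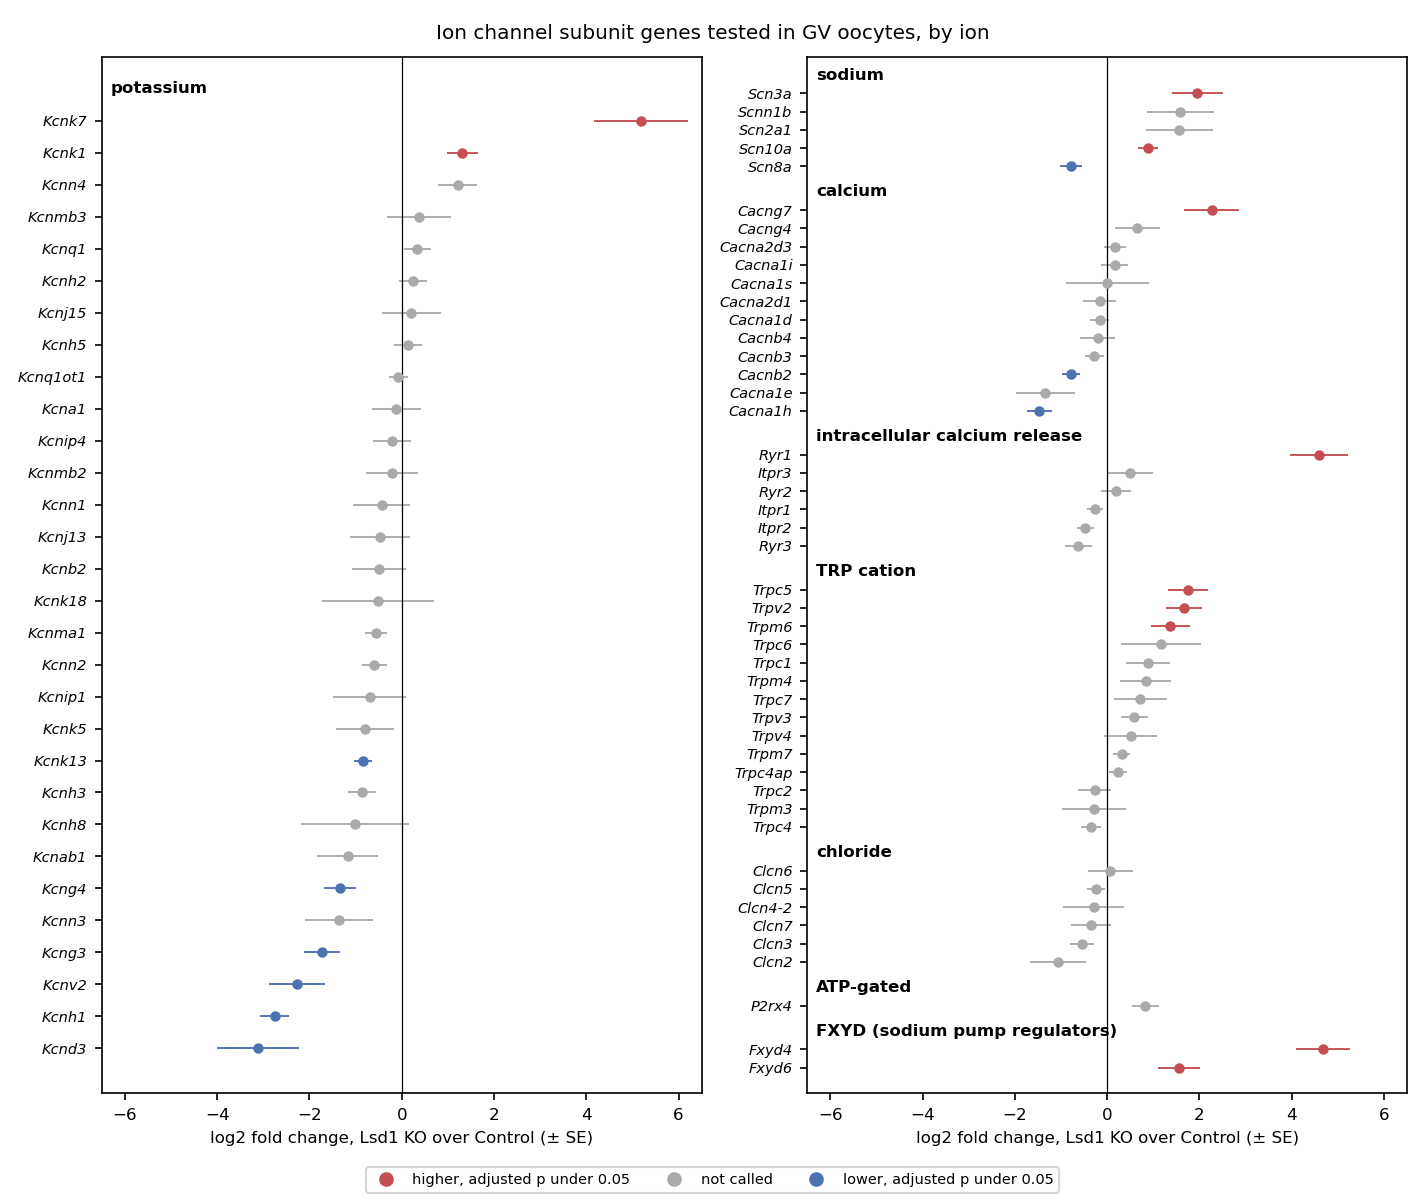
Log2 fold change, Lsd1 KO over Control, of each of the 76 tested members, grouped by ion; bars are ± SE, red points are higher and blue points lower at an adjusted p under 0.05, and grey points were not called. Potassium members lie mostly left of 0 (22 of 30) and TRP members mostly right of it (11 of 14).

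The low-count filter bears on these counts. It asks for at least 0.867 CPM, which is 10 counts in a library of median size, in 3 or more libraries. Of the 76 tested members, 50 reached that level in all 6 libraries, and 6 of these were higher and 7 lower. Another 10 reached it in every Lsd1 KO library but not in every Control library, and 5 of these were called higher: Cacng7, Fxyd4, Kcnk7, Ryr1 and Scn3a. A further 11 reached it in every Control library but not in every Lsd1 KO library, and 2 of these were called lower: Kcnd3 and Kcnv2. A gene that reaches the level in every library of 1 group alone already tends to differ between groups. These 7 calls therefore weigh less as a count than as single measurements. Cacng7, Scn3a and Kcnv2 also reached the level in some libraries of the other group.

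**Figure D2:**
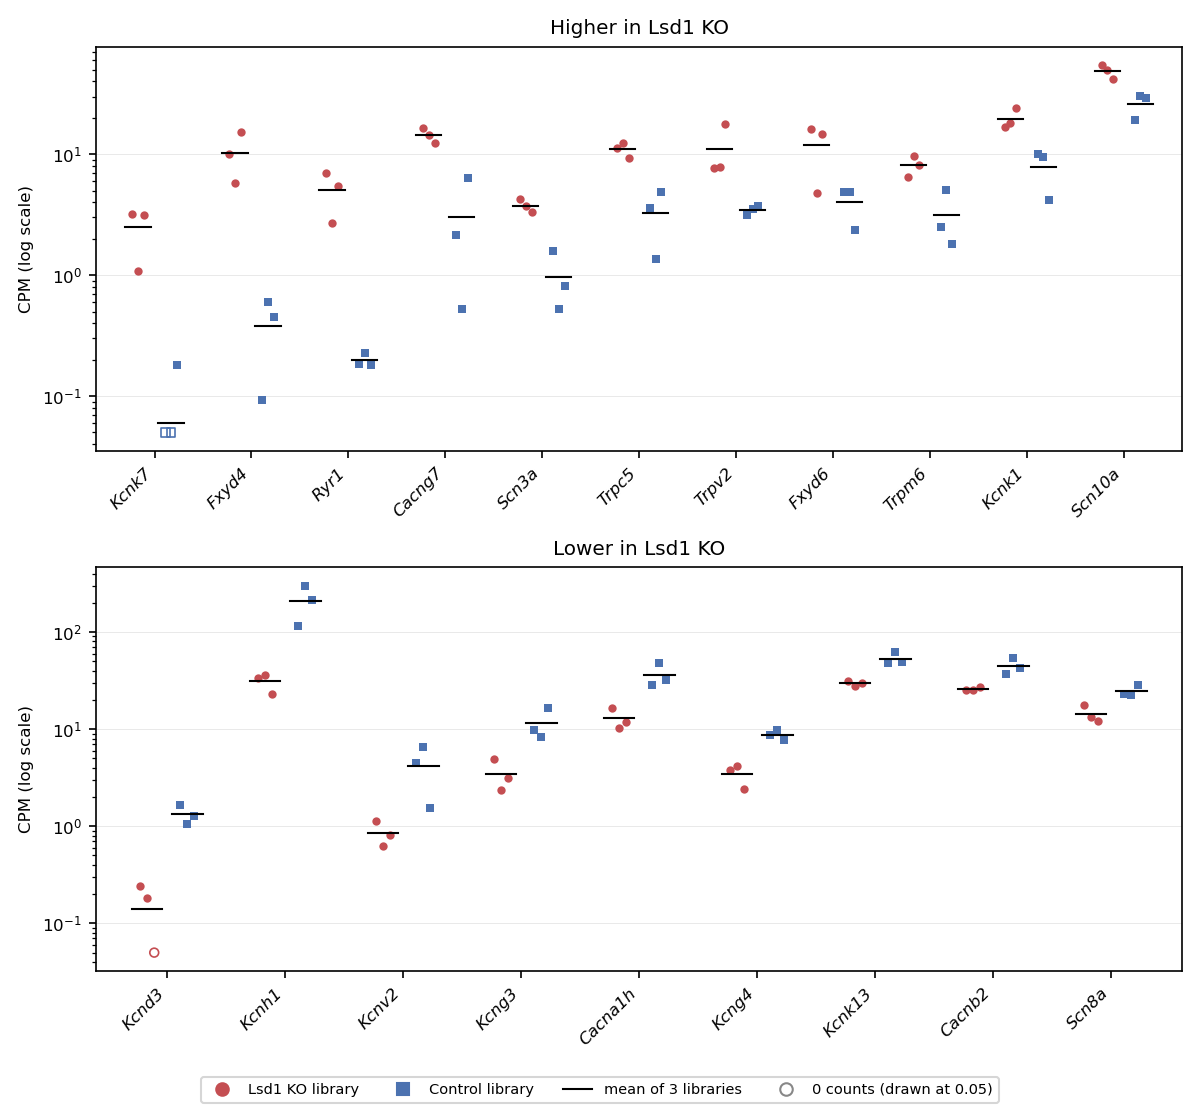
CPM on a log scale in every library for the 11 members higher (upper panel) and the 9 members lower (lower panel) in Lsd1 KO; red circles are Lsd1 KO libraries, blue squares Control libraries, bars the mean of 3, and open symbols 0 counts drawn at 0.05. The groups overlap for Fxyd6 alone among the 20.

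Sequences just upstream were drawn from called members that held in every fit with 1 library left out and had a RefSeq promoter. Those of the 3 largest rises and the 2 largest falls among these members are shown. Each is the 250 bases before the annotated start, 5′ to 3′ on the gene's strand, from the RefSeq promoter table on GRCm38.p6, with every CpG in capitals. Kcnh1 and Kcng3 are members that fell and Kcnk7, Fxyd4 and Ryr1 members that rose. The windows lie at chr1:192190527-192190776 on the + strand for Kcnh1, chr17:83631896-83632145 on the - strand for Kcng3, chr19:5704221-5704470 on the + strand for Kcnk7, chr6:117937336-117937585 on the - strand for Fxyd4 and chr7:29125152-29125401 on the - strand for Ryr1.
Kcnh1: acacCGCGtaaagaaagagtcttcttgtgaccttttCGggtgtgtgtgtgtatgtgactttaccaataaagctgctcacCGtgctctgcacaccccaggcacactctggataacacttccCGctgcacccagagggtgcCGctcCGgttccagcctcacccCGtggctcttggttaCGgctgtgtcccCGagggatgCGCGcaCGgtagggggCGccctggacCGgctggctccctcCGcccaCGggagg
Kcng3: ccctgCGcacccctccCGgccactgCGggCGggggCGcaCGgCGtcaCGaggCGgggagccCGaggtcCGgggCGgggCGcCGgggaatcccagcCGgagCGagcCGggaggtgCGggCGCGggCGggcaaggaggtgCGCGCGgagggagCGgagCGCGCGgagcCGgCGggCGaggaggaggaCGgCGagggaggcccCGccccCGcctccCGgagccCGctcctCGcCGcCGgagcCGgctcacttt
Kcnk7: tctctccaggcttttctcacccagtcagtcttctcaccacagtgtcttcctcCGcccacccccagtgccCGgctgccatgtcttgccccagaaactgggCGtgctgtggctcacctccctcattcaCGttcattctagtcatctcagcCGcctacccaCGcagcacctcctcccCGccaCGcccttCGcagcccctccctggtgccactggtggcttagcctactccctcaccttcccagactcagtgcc
Fxyd4: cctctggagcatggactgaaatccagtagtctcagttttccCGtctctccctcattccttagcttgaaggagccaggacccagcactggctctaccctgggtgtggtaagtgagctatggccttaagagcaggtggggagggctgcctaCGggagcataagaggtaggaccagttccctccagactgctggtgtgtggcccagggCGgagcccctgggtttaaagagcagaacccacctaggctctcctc
Ryr1: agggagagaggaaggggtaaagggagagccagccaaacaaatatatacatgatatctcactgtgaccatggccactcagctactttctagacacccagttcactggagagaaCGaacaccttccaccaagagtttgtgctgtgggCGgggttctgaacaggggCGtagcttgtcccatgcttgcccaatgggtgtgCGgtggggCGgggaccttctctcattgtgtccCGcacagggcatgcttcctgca
These windows held 17 CpGs for Kcnh1, 41 for Kcng3, 9 for Kcnk7, 3 for Fxyd4 and 6 for Ryr1. Of the 20 called members 17 had a promoter in the table, and Cacna1h, Kcnv2 and Scn3a were not among them. Taking the window with the most CpGs where a gene has several, the median was 6.5 CpGs (range 0 to 9) for 10 members that rose and 18 (range 4 to 41) for 7 that fell, against 12 for 45 tested members that were not called. All genes that rose had a median of 13 (1022 genes), all that fell 19 (929 genes), and all tested genes 17 (9240 genes). No test of these medians was made. Kcnk7, Fxyd4, Ryr1 and Cacng7 among the risen, and Kcnd3 among the fallen, reached the filter level in every library of their higher group only. The medians are therefore taken partly over members that the filter itself favoured. Neither the TATA motif TATAAA nor the E-box CACGTG was found on either strand in the windows of the 17 called members. Their shares were 3.23% and 9.68% of members tested and 6.21% and 8.45% of all genes tested (12.4% and 6.02% of all genes in the table). The GC box GGGCGG was found in 4 of the 10 risen (40%) and 3 of the 7 fallen (42.9%), against 50% of members tested and 59.6% of all genes tested (32.7% of all genes in the table). TTCAGCACC, the left arm of the element bound by REST, was found in none, against 0.281% of all genes tested (0.301% of all in the table).

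Kcnh1, which encodes the pore of an ether-à-go-go voltage-gated potassium channel known from neurons and from dividing tumour cells, fell most clearly of all members. It had 33.6, 36.4 and 23 CPM in the Lsd1 KO libraries, against 116, 301 and 211 CPM in the Control libraries. Every Control library was more than 3 times the highest Lsd1 KO library, although the Control libraries also differed among themselves. The mean was 31.0 ± 7.09 CPM in Lsd1 KO oocytes and 209 ± 92.6 CPM in Control (SD, n = 3 each), a 6.75-fold lower mean (log2 fold change -2.75 ± 0.31, adjusted p = 1.72e-04). The call held without any 1 library, with log2 fold changes from -3.07 to -2.38. The gene spans chr1:194014666-194334041 on the + strand of NCBIM37 (mm9), and counts per gene do not separate its isoforms.

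Kcnh1 also set much of the difference in the potassium class as a whole. Per kilobase of exon, a scale on which levels of different genes can be compared, it was the most abundant of the 185 members with a known length in Control oocytes (28.6 ± 12.6 CPM per kb) and the 20th in Lsd1 KO oocytes (4.23 ± 0.969 CPM per kb). It made up 6.14%, 7.01% and 4.06% of the summed CPM per kb of the potassium members in the Lsd1 KO libraries, against 18.1%, 31.0% and 25.6% in the Control libraries. The summed CPM of all potassium members was 277, 269 and 290.1 in the Lsd1 KO libraries, against 390.4, 640.0 and 535 in Control, with no overlap. Without Kcnh1 the sums were 243, 232 and 267 in Lsd1 KO, against 275, 339 and 324 in Control, closer together but still not overlapping.

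**Figure D3:**
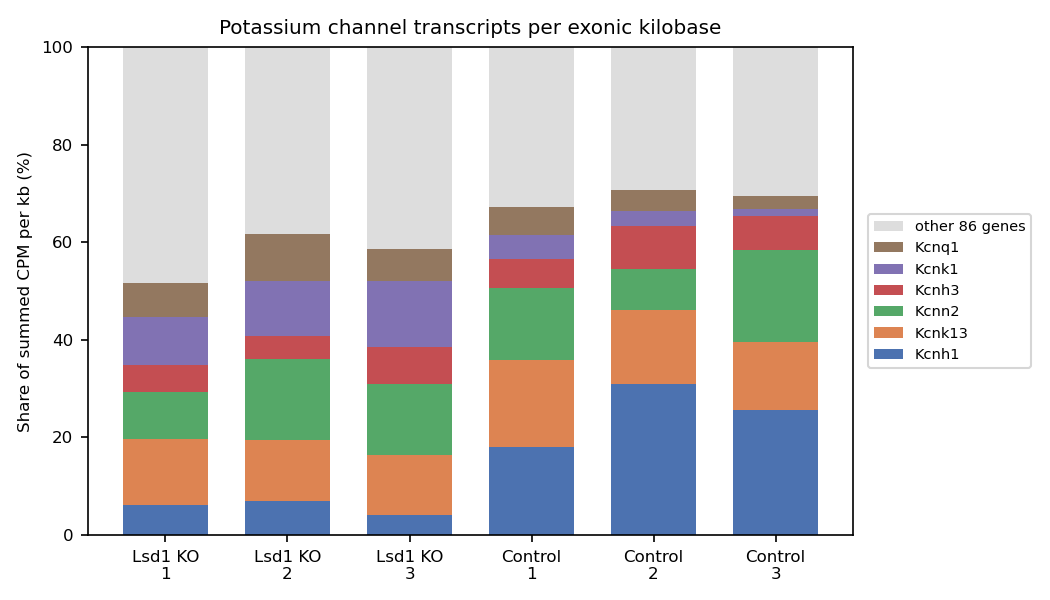
Share of the summed CPM per exonic kilobase of potassium members (%) in each library for the 6 most abundant genes and the other 86. Kcnh1, at the foot of each bar, takes 4.06% to 7.01% in Lsd1 KO libraries and 18.1% to 31.0% in Control libraries.

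The other voltage-gated potassium pore genes that fell included all 3 tested members of the silent families. Kcng3, Kcng4 and Kcnv2 encode subunits that form no channel alone and assemble with other voltage-gated pore subunits. Kcng3 had 4.89, 2.35 and 3.14 CPM in the Lsd1 KO libraries, against 9.80, 8.29 and 16.6 CPM in the Control libraries (log2 fold change -1.73 ± 0.39, adjusted p = 0.00903), and the call held without any 1 library. Kcng4 had 3.77, 4.15 and 2.42 CPM in Lsd1 KO libraries, against 8.69, 9.79 and 7.77 CPM in Control libraries (-1.34 ± 0.35, adjusted p = 0.0175). Kcnv2 had 1.12, 0.631 and 0.808 CPM in Lsd1 KO libraries, against 4.44, 6.55 and 1.54 CPM in Control libraries (-2.27 ± 0.61, adjusted p = 0.0198). For all 3 the highest Lsd1 KO library lay below the lowest Control library. Kcng4 was no longer called when replicate 1 or 3 of Lsd1 KO or replicate 2 of Control was left out (adjusted p up to 0.0721), nor was Kcnv2 when replicate 3 of Lsd1 KO or replicate 1 or 2 of Control was left out (up to 0.132).

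Kcnb2, a delayed rectifier pore subunit that silent subunits can join, had 0.882, 1.26 and 2.06 CPM in Lsd1 KO libraries, against 2.59, 1.36 and 1.99 CPM in Control libraries, with overlapping groups (-0.49 ± 0.58, adjusted p = 0.581).

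Kcnd3, which encodes a pore subunit of transient A-type potassium current, was near the limit of the test. It had 3, 2 and 0 counts in the Lsd1 KO libraries, against 18, 14 and 14 counts in the Control libraries (log2 fold change -3.12 ± 0.89, adjusted p = 0.0263). The groups did not overlap, but the call was lost when any 1 of the 6 libraries was left out (adjusted p up to 0.108). With Kcnh1 and the silent subunits counted, 5 of the 12 tested voltage-gated potassium pore genes were lower and none higher, against 10.3% lower among all genes tested. Of the 5, Kcnd3 and Kcnv2 reached the filter level in every Control library but not in every Lsd1 KO library. Kcnh3, a brain-enriched relative of Kcnh1, had 15.2, 12.8 and 21.7 CPM in Lsd1 KO libraries and 19, 42.8 and 28.6 CPM in Control libraries and was not called (-0.86 ± 0.30, adjusted p = 0.0613).

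The K2P leak channels, which pass potassium at rest and hold the membrane potential negative, changed in both directions. Kcnk13, a member of the halothane-inhibited branch, was the third most abundant channel gene per kilobase in Control oocytes. It had 31.5, 27.5 and 29.6 CPM in the Lsd1 KO libraries, against 48.0, 61.8 and 48.7 CPM in the Control libraries (log2 fold change -0.84 ± 0.19, adjusted p = 0.00852). Kcnk1, which encodes a weakly conducting leak channel found in many epithelia, had 16.8, 18.1 and 24.1 CPM in Lsd1 KO libraries, against 10.1, 9.49 and 4.15 CPM in Control libraries (1.31 ± 0.34, adjusted p = 0.0162). Neither gene overlapped between groups. The call on Kcnk13 held without any 1 library, and that on Kcnk1 was lost without Lsd1 KO replicate 3 (adjusted p = 0.0656).

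Kcnk7, a K2P gene whose protein has not been shown to conduct on its own, was close to undetected in Control oocytes. It had 40, 12 and 35 counts in the Lsd1 KO libraries, against 0, 0 and 2 counts in the Control libraries, or 2.48 ± 1.21 CPM in Lsd1 KO oocytes and 0.0602 ± 0.104 CPM in Control (SD, n = 3 each). The ratio of the summed counts, adjusted for library size, was 44.0 with an exact 95% interval of 11.8 to 369 that covers counting error only (fitted log2 fold change 5.19 ± 1.02, adjusted p = 0.00424). The call held without any 1 library, and the fitted log2 value ran from 4.62 to 7.86, the highest without Control replicate 3, which holds both Control counts. Per kilobase of exon it ranked 30th of the 185 members in Lsd1 KO oocytes and 99th in Control oocytes.

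No calcium-activated potassium channel gene was called among 5 tested. Kcnma1, the large-conductance channel, had 14.4, 15.2 and 20.3 CPM in the Lsd1 KO libraries and 22.1, 28.6 and 22.1 CPM in the Control libraries (-0.55 ± 0.24, adjusted p = 0.116). Kcnn4, the intermediate-conductance channel, had 6.01, 5.23 and 10.8 CPM in Lsd1 KO libraries and 3.24, 1.96 and 4.34 CPM in Control libraries (1.21 ± 0.43, adjusted p = 0.0633). Neither overlapped between groups, and Kcnn4 passed the threshold by the Wald test of DESeq2 (adjusted p = 0.0402) and without the low-count filter (0.0475). Kcnn2, a small-conductance channel and the fourth most abundant member per kilobase, gave overlapping groups (-0.59 ± 0.26, adjusted p = 0.131). Kcnj11, the pore of the ATP-sensitive potassium channel, had 0 counts in all 6 libraries, which allows a level of up to 0.0429 CPM over the 69938253 counts of the series. Kcnq1ot1, a long non-coding RNA antisense to Kcnq1 and no channel subunit, was not called (-0.07 ± 0.22, adjusted p = 0.844), nor was Kcnq1 (0.34 ± 0.29, adjusted p = 0.445), and reads of the pair cannot be assigned to a strand here.

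Among genes for calcium entry, Cacna1h fell and the L-type gene Cacna1d was not called. Cacna1h encodes the pore of a low-voltage-activated T-type channel, known in mouse eggs as a route of calcium entry that helps to fill the stores. It had 16.7, 10.4 and 11.9 CPM in the Lsd1 KO libraries, against 28.3, 47.7 and 31.7 CPM in the Control libraries. The groups lay apart, at 13 ± 3.28 CPM in Lsd1 KO oocytes and 35.9 ± 10.3 CPM in Control (SD, n = 3 each), a 2.76-fold lower mean (log2 fold change -1.46 ± 0.27, adjusted p = 0.00289). The call held without any 1 library, with log2 fold changes from -1.66 to -1.19. The gene lies at chr17:25511230-25570728 (mm9), where its exons overlap those of Tpsg1, which had 0 CPM in these libraries. Cacna1d had 23.5, 21.9 and 25.6 CPM in Lsd1 KO libraries and 26.4, 31.6 and 21.5 CPM in Control libraries, which overlap (-0.16 ± 0.21, adjusted p = 0.627).

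Among the auxiliary subunits of calcium channels, Cacnb2 fell and Cacng7 rose. Cacnb2 encodes a cytoplasmic beta subunit that carries high-voltage-activated pores to the membrane. It had 25.3, 25.1 and 27.5 CPM in the Lsd1 KO libraries, against 36.6, 54.2 and 42.8 CPM in the Control libraries (log2 fold change -0.78 ± 0.20, adjusted p = 0.0163). The groups did not overlap, but the call was lost when replicate 1 or 3 of Lsd1 KO or replicate 2 of Control was left out (adjusted p up to 0.0878). Cacnb3, the beta subunit with the most reads per kilobase, had 18.6, 22.5 and 21.5 CPM in Lsd1 KO libraries and 21.4, 27.9 and 26.5 CPM in Control libraries and was not called (-0.27 ± 0.21, adjusted p = 0.390), nor was the alpha2delta gene Cacna2d3 (0.17 ± 0.24, adjusted p = 0.648). Cacng7, a gamma subunit gene whose product also binds AMPA-type glutamate receptors in brain, had 16.4, 14.5 and 12.3 CPM in Lsd1 KO libraries, against 2.13, 0.527 and 6.41 CPM in Control libraries (2.26 ± 0.60, adjusted p = 0.0183). Its Control libraries were widely spread, and without Control replicate 1 the adjusted p was 0.0826 and across such fits the log2 fold change ran from 1.77 to 3.46.

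Among the channels that release calcium from stores, Ryr1 rose and the other 5 genes were not called. Itpr1, the inositol trisphosphate receptor that carries the calcium oscillations of mouse eggs, was the most abundant member per kilobase over both groups (15.7 CPM per kb in Lsd1 KO and 18.8 CPM per kb in Control). It had 181, 168 and 142 CPM in the Lsd1 KO libraries and 175, 230.3 and 184 CPM in the Control libraries, which overlap (log2 fold change -0.26 ± 0.18, adjusted p = 0.326). Itpr2, a second receptor isoform, had 64.7, 61.1 and 49.0 CPM in Lsd1 KO libraries and 87.3, 84.7 and 71.3 CPM in Control libraries, with no overlap but no call (-0.48 ± 0.18, adjusted p = 0.0840). Itpr3 had 5.61, 3.16 and 3.05 CPM in Lsd1 KO libraries and 2.77, 4.22 and 1.35 CPM in Control libraries, again with overlap (0.50 ± 0.50, adjusted p = 0.514).

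Ryr1 encodes the ryanodine receptor of skeletal muscle, where it releases stored calcium at excitation. It had 87, 30 and 61 counts in the Lsd1 KO libraries, against 2, 3 and 2 counts in the Control libraries, that is 6.97, 2.71 and 5.48 CPM against 0.185, 0.226 and 0.181 CPM. The lowest Lsd1 KO library was more than 10 times the highest Control library (log2 fold change 4.60 ± 0.63, adjusted p = 5.97e-04), and the call held without any 1 library. Neither paralogue was called. Ryr2, the cardiac form, had 12, 11.4 and 10.9 CPM in Lsd1 KO libraries and 10.1, 13.6 and 6.05 CPM in Control libraries (0.20 ± 0.32, adjusted p = 0.695). Ryr3, the more widely expressed form, had 12.3, 7.13 and 8.71 CPM in Lsd1 KO libraries and 15.4, 12.4 and 15.6 CPM in Control libraries (-0.62 ± 0.29, adjusted p = 0.145). Per kilobase of exon, Ryr1 had the lowest level of the 6 release genes in both groups, at 0.329 CPM per kb in Lsd1 KO oocytes and 0.0128 CPM per kb in Control oocytes. Exons of Ryr1 overlap those of Gm16799, a non-coding RNA gene on the opposite strand, over 299 bp. Gm16799 was not counted and the strand setting is not stated, so its part in the Ryr1 reads was not tested.

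**Figure D4:**
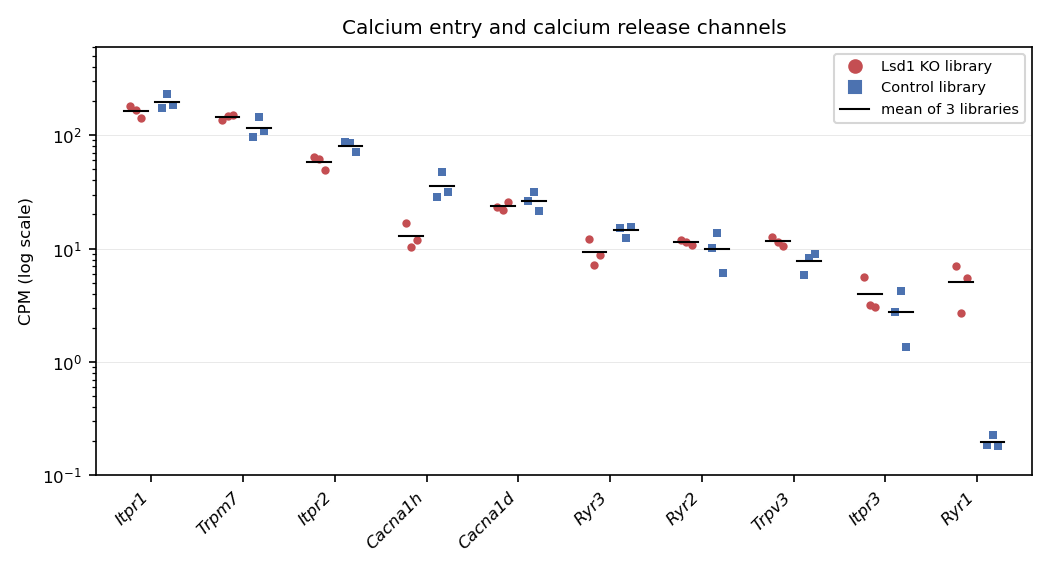
CPM on a log scale of calcium entry and release genes in every library. Red circles are Lsd1 KO libraries, blue squares Control libraries and bars the mean of 3. Cacna1h is lower and Ryr1 higher in Lsd1 KO with no overlap, while Itpr1 at 142 to 181 CPM in Lsd1 KO oocytes and 175 to 230.3 CPM in Control overlaps.

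TRP channels are cation channels, many of them permeable to calcium and opened by receptors, temperature or lipids. Trpc5, a receptor-operated channel known from brain and kidney, had 11.3, 12.4 and 9.25 CPM in the Lsd1 KO libraries, against 3.61, 1.36 and 4.88 CPM in the Control libraries. The groups did not overlap (log2 fold change 1.75 ± 0.43, adjusted p = 0.0129), and the call held without any 1 library. Trpv2, a calcium-permeable channel of neurons and macrophages, had 7.70, 7.85 and 17.7 CPM in Lsd1 KO libraries, against 3.14, 3.54 and 3.70 CPM in Control libraries (1.67 ± 0.39, adjusted p = 0.0105). Lsd1 KO replicate 3 stood above the other Lsd1 KO libraries for Trpv2, and without it the adjusted p was 0.0623. In the same Lsd1 KO libraries, blood and immune markers summed to 168.5, 9.74 and 114 CPM. Granulosa and cumulus markers summed to 103.7, 79.5 and 183 CPM without Cyp19a1, and to 431, 484 and 422 CPM with it. The part of other cells in the Trpv2 value was not tested.

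Trpm6 and Trpm7 encode magnesium-permeable channels fused to a kinase. Trpm6 had 6.49, 9.74 and 8.17 CPM in the Lsd1 KO libraries, against 2.5, 5.05 and 1.81 CPM in the Control libraries (log2 fold change 1.37 ± 0.42, adjusted p = 0.0372). Its groups did not overlap, yet the call held in 1 of the 6 fits with a library left out, that without Control replicate 2 (adjusted p up to 0.121 in the others). Trpm7, known in mouse eggs as a calcium and magnesium entry route, had 138, 148 and 149.6 CPM in Lsd1 KO libraries and 96.1, 143 and 109 CPM in Control libraries, overlapping at Control replicate 2 (0.32 ± 0.19, adjusted p = 0.243). With a correction for gene length and GC content it passed the threshold (0.63, adjusted p = 0.0241). Trpv3, a thermosensitive channel that passes calcium in mouse eggs, had 12.7, 11.5 and 10.6 CPM in Lsd1 KO libraries and 5.83, 8.29 and 9.03 CPM in Control libraries, without overlap and without a call (0.59 ± 0.29, adjusted p = 0.174). Trpc4ap, which encodes an adaptor and no channel, was not called (0.23 ± 0.19, adjusted p = 0.423).

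Scn10a, a pore subunit best known from pain-sensing neurons, had the highest level per kilobase of the 16 sodium members with a known length. It had 54.4, 49.8 and 41.7 CPM in the Lsd1 KO libraries, against 19.2, 30.1 and 29.4 CPM in the Control libraries. Every Lsd1 KO library was above every Control library (48.6 ± 6.43 CPM in Lsd1 KO oocytes and 26.2 ± 6.08 CPM in Control, SD, n = 3 each; log2 fold change 0.89 ± 0.22, adjusted p = 0.0133). The call was lost when replicate 1 of either genotype was left out (adjusted p up to 0.0579). Scn10a lies at chr9:119517584-119603478 (mm9) next to the sodium channel gene Scn11a, which had too few counts to be tested.

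The remaining pore genes diverged. Scn3a, an embryonic brain form, had 4.25, 3.70 and 3.32 CPM in the Lsd1 KO libraries, against 1.57, 0.527 and 0.813 CPM in the Control libraries (log2 fold change 1.95 ± 0.55, adjusted p = 0.0250). Scn8a, the main form of adult axons, had 17.6, 13.3 and 12.2 CPM in Lsd1 KO libraries, against 22.8, 22.4 and 28.5 CPM in Control libraries (-0.77 ± 0.24, adjusted p = 0.0366). Neither overlapped between groups, and both calls were fragile. That on Scn3a held with replicate 2 of Lsd1 KO or replicate 1 of Control left out and was lost without any other library (adjusted p up to 0.0915). That on Scn8a held without Lsd1 KO replicate 1 and was lost without any other library (up to 0.140). Scnn1b, a subunit of the epithelial sodium channel, had 4.25, 1.08 and 0.898 CPM in Lsd1 KO libraries and 0.647, 0.527 and 0.903 CPM in Control libraries with overlap and was not called (1.58 ± 0.73, adjusted p = 0.141). Summed neuron markers, of which the tubulin gene Tubb3 made up most, were 85.5 to 139 CPM in Lsd1 KO libraries and 83.6 to 108 CPM in Control libraries, and Nefm was at 0.

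The CLC family of chloride channels and chloride-proton exchangers gave no call in 6 tested members, and 5 of the 6 fold changes were negative. Clcn5, an endosomal exchanger, had 48.6, 60.7 and 42.6 CPM in the Lsd1 KO libraries and 48.6, 64.8 and 65.3 CPM in the Control libraries (log2 fold change -0.24 ± 0.20, adjusted p = 0.436). Clcn3, a vesicular exchanger whose current has been studied in mouse oocytes and embryos, had 15.2, 21.6 and 16.5 CPM in Lsd1 KO libraries and 20.6, 22.5 and 34.9 CPM in Control libraries (-0.55 ± 0.26, adjusted p = 0.149). Both overlapped between groups. P2rx4, an ATP-gated cation channel, had 28.2, 14.5 and 19.2 CPM in Lsd1 KO libraries and 9.16, 11.7 and 14 CPM in Control libraries (0.83 ± 0.29, adjusted p = 0.0623). The P2rx4 groups lay side by side without overlap, and the gene passed the threshold by the Wald test of DESeq2 (adjusted p = 0.0377) and without the low-count filter (0.0452). It was the only one of 7 ATP-gated members with enough counts to be tested.

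The FXYD proteins are small membrane proteins that bind the sodium pump and tune its affinity for sodium and potassium. Fxyd4, known from kidney collecting duct and colon, had 10.02, 5.77 and 15.2 CPM in the Lsd1 KO libraries, against 0.0925, 0.603 and 0.452 CPM in the Control libraries. The lowest Lsd1 KO library was more than 9 times the highest Control library (10.3 ± 4.71 CPM in Lsd1 KO oocytes and 0.382 ± 0.262 CPM in Control, SD, n = 3 each; log2 fold change 4.68 ± 0.59, adjusted p = 3.19e-04), and the call held without any 1 library. Per kilobase of exon Fxyd4 ranked 6th of the 185 members in Lsd1 KO oocytes and 58th in Control oocytes. Fxyd6, known from brain, had 16.3, 4.78 and 14.7 CPM in Lsd1 KO libraries, against 4.90, 4.90 and 2.35 CPM in Control libraries (1.55 ± 0.46, adjusted p = 0.0308). Here the groups overlapped, since Lsd1 KO replicate 2 lay within the Control range, and the call held in 1 of 6 fits with a library left out, that without Lsd1 KO replicate 2 (adjusted p up to 0.125 in the others). Of the other 5 FXYD genes none had enough counts to be tested.

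Of the 11 risen members, Kcnk7, Fxyd4, Ryr1 and Fxyd6 were lowest among the Lsd1 KO libraries in replicate 2, while 2 were highest there and 5 lay between. The summed blood and immune markers were also lowest in that library (9.74 CPM, against 168.5 and 114 CPM in the other two). Of the 9 fallen members 5 were lowest there too. In the libraries with the fewest such markers, Lsd1 KO replicate 2 and Control replicate 2, Fxyd4 was at 5.77 CPM in Lsd1 KO oocytes and 0.603 CPM in Control, and Ryr1 at 2.71 CPM in Lsd1 KO oocytes and 0.226 CPM in Control. Kcnk7 stood at 1.08 CPM in Lsd1 KO oocytes and 0 CPM in Control in that pair. Fxyd6 was not higher there, at 4.78 CPM in Lsd1 KO oocytes and 4.90 CPM in Control. All 4 globin genes of the list were at 0 in every library. The pair holds a single library of each genotype, and it differed in other markers. Its granulosa and cumulus sum, with Cyp19a1, was 484 CPM in Lsd1 KO replicate 2 and 124 CPM in Control replicate 2. Of the granulosa markers, Cyp19a1 had 328, 405 and 239 CPM in Lsd1 KO libraries, against 28.6, 32.5 and 49.2 CPM in Control libraries, while the follicle-stimulating hormone receptor gene Fshr stood at 1.52 to 5.48 CPM in Lsd1 KO oocytes and 0.925 to 1.81 CPM in Control. Of the 9 tested granulosa markers 5 were lowest in Lsd1 KO replicate 2 among the Lsd1 KO libraries, and the sum without Cyp19a1 was 103.7, 79.5 and 183 CPM in Lsd1 KO libraries, against 94.5, 91.1 and 106 CPM in Control libraries. Nr5a2, which fell, made up most of these Control sums. Theca and stroma markers summed to 10.7 to 15.4 CPM in Lsd1 KO libraries and 2.40 to 3.47 CPM in Control libraries, and endothelial markers to 103 to 122 CPM in Lsd1 KO libraries and 69.2 to 86.2 CPM in Control libraries. Pecam1 and Tek made up nearly all of the endothelial sum, while Kdr was low and Cdh5 and Emcn had almost no counts. The part of other cells in these rises was not tested.

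**Figure D5:**
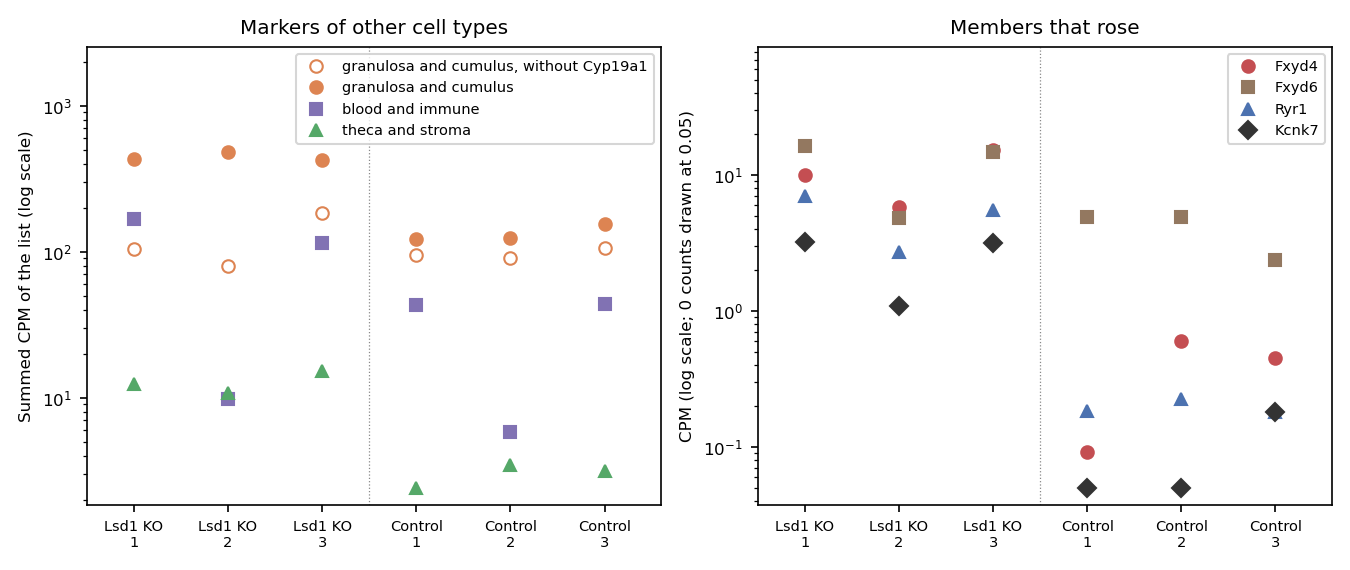
Left, summed CPM of marker genes of granulosa and cumulus (filled circles; open circles, without Cyp19a1), blood and immune, and theca and stroma cells in each library, on a log scale; right, CPM of Fxyd4, Fxyd6, Ryr1 and Kcnk7 in the same libraries, with 0 counts drawn at 0.05. Blood and immune markers, granulosa and cumulus markers without Cyp19a1 and all 4 genes are lowest in replicate 2 among the Lsd1 KO libraries. The full granulosa and cumulus sum, with Cyp19a1, is highest there (431, 484 and 422 CPM in Lsd1 KO replicates 1 to 3).

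Members that could not be tested were numerous but scarce. None of the 113 averaged more than 1.04 CPM over the 6 libraries. The highest sums of counts were 72 for the alpha2delta gene Cacna2d2, 62 for Kcnrg, which encodes a regulator of potassium channels and no subunit, 58 for Fxyd5, 56 for Kcnq5 and 55 for Cacna1a. A potassium pore gene, Kcnc4, had 19, 0 and 20 counts in the Lsd1 KO libraries and 0 in all Control libraries, again with none in Lsd1 KO replicate 2. A count of 0 in a single library allows up to 0.279 CPM in the least deeply sequenced one, counting error only. On the chromosomes, several tested members had only untested channel neighbours: Cacng7 was the only tested gene of the cluster with Cacng6 and Cacng8 on chromosome 7, and Fxyd6 the only one beside Scn2b, Scn4b and Fxyd2 on chromosome 9.

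Lists of related genes were read beside the channels. Of the genes for handling calcium at stores and plasma membrane, 29 of 41 in the files were tested, 2 were higher and 1 lower (10.3%, against 21.3% of all genes tested), with a median log2 fold change of 0.00. Ccdc109a, the older symbol of Mcu, the pore of the mitochondrial calcium uniporter, had 178, 212 and 162 CPM in the Lsd1 KO libraries, against 75.8, 92.0 and 127 CPM in the Control libraries (0.90 ± 0.21, adjusted p = 0.0102), a call that held without any 1 library. Atp2b4, a plasma membrane calcium pump, had 26.1, 33.4 and 25.4 CPM in Lsd1 KO libraries, against 16.1, 15.2 and 16.7 CPM in Control libraries (0.82 ± 0.22, adjusted p = 0.0175), a call lost when replicate 2 of Lsd1 KO or replicate 1 or 2 of Control was left out (up to 0.0756). Calm2, one of the calmodulin genes, averaged 876 ± 117 CPM in Lsd1 KO oocytes and 1390.2 ± 312 CPM in Control (-0.67 ± 0.20, adjusted p = 0.0343), a call that held with replicate 2 of Control left out and was lost without any other library (up to 0.106).

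Of the genes of the sodium pump and of cation, chloride and proton transport, 24 of 33 were tested, with 2 higher and 3 lower (20.8%, against 21.3% of all genes tested) and a median log2 fold change of 0.02. Slc12a2, the sodium-potassium-chloride cotransporter that raises cell chloride, had 36.0, 54.5 and 51.6 CPM in the Lsd1 KO libraries, against 94.9, 135 and 116 CPM in the Control libraries (-1.29 ± 0.21, adjusted p = 0.00171), and the call held without any 1 library. The potassium-chloride cotransporter gene Slc12a7 averaged 14.9 ± 0.831 CPM in Lsd1 KO oocytes and 27.8 ± 6.78 CPM in Control (-0.90 ± 0.23, adjusted p = 0.0172). The bicarbonate transporter gene Slc4a7 averaged 43.6 ± 17.6 CPM in Lsd1 KO oocytes and 85.4 ± 3.60 CPM in Control (-0.97 ± 0.26, adjusted p = 0.0179). Both calls were lost when replicate 1 or 3 of Lsd1 KO or replicate 2 of Control was left out (adjusted p up to 0.0972 for Slc12a7 and 0.0776 for Slc4a7). Sgk3, a kinase known to regulate ion transporters, went the other way at 5.34 ± 3.06 CPM in Lsd1 KO oocytes and 1.28 ± 0.351 CPM in Control (2.05 ± 0.55, adjusted p = 0.0196), a call lost when replicate 3 of Lsd1 KO or replicate 1 or 2 of Control was left out (up to 0.102).

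Channel genes whose names fall outside the member pattern gave 10 higher and 1 lower among 39 tested of 68 in the files, or 28.2% against 21.3% of all genes tested, with a median log2 fold change of 0.27. One of the 10, the connexin gene Gja1, is also on the list of granulosa markers, and its groups overlapped. Ano7, of the anoctamin family of calcium-activated channels and scramblases, had 5.85, 10.6 and 7.45 CPM in the Lsd1 KO libraries, against 1.11, 0.0753 and 0.0903 CPM in the Control libraries (4.24 ± 0.74, adjusted p = 0.00227). Mcoln1, a lysosomal cation channel, averaged 29.8 ± 1.45 CPM in Lsd1 KO oocytes and 13.5 ± 1.08 CPM in Control (1.15 ± 0.21, adjusted p = 0.0029). Trpa1, the irritant-sensing TRP channel, averaged 39.3 ± 11 CPM in Lsd1 KO oocytes and 15 ± 5.4 CPM in Control (1.39 ± 0.29, adjusted p = 0.00634). Lrrc8a, the core subunit of the volume-regulated anion channel, was the one that fell, at 97.6 ± 3.54 CPM in Lsd1 KO oocytes and 179 ± 45.1 CPM in Control (-0.88 ± 0.20, adjusted p = 0.00985; n = 3 for each of these means, with SD). All 4 calls held without any 1 library.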

How the data were processed

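RNA was measured in 6 samples of 100 GV oocytes. Cells were lysed directly, cDNA was amplified with the Ovation RNA-seq system, and paired-end libraries were made with the TruSeq kit, per the labels' protocols. The deposited files hold raw read counts per gene symbol, 1 column per sample. Per the submitters' processing notes, TopHat2 2.0.7, HTSeq 0.5.3p9, CASAVA 1.8.2 and the mm9 genome were used. Options, annotation and strand setting are not stated in the sources used here, so overlapping and antisense genes cannot be separated. From the counts, genes were kept by filterByExpr (minimum count 10), scaled by TMM and tested with edgeR 4.0.16 (quasi-likelihood F test, two-sided, genotype only, Benjamini-Hochberg over 12935 genes, threshold 0.05) in R 4.3.3. CPM are TMM-scaled. Lengths and positions came from GENCODE M1 on NCBIM37 for 185 members. The fit was tested on simulated data. The alternatives changed scaling, filter, threshold and test (limma 3.58.1, DESeq2 1.42.0), added a replicate term or a length and GC correction, or left out 1 library.

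The members and gene lists were chosen with earlier results of these data known. Named are all called members, the 2 most abundant per ion class on the per-length scale, members studied in mouse eggs, up to 4 called genes per related list, and the most counted untested members. Kcnb2, Kcnh3, Kcnn2, Kcnq1, Kcnq1ot1, Kcnc4, Kcnk18, Ryr2 and Ryr3 were chosen after their values were seen. Some members are counted but not reported by name.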

Additional observations from a re-analysis of the deposited data

How the results depend on the processing

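DESeq2 size factors and library totals each gave 11 members higher and 9 lower. Of the genes named by rule, none of the 47 with a fit reversed direction in any of the 16 alternatives. Those alternatives include changes of threshold, which cannot change a direction. The genes chosen after their values were seen were not part of that check. With at least 10 CPM required in 3 libraries, 4 members were higher and 5 lower of 30 tested. At an adjusted p under 0.01, 3 members were higher and 4 lower, and of all genes 676 and 497; with a log2 fold change of 1 or more in size required, 945 genes of all were higher and 625 lower, against 1421 higher and 1329 lower without these conditions. Leaving out 1 library gave 6 to 12 members higher and 4 to 7 lower, and 932 to 1466 genes of all higher and 638 to 1346 lower. The replicate numbers did not pair the samples (correlations of deviations -0.029, 0.111 and -0.021 for replicates 1 to 3, with replicate 2 alone best with its own number): with a replicate block, 10 members were higher and 8 lower, and 1270 and 1098 of all genes, and Fxyd6 (1.45, adjusted p = 0.0504) and Scn8a (-0.78, adjusted p = 0.0607) were no longer called. With limma-voom, Fxyd6 (1.44, adjusted p = 0.0696), Kcnv2 (-2.07, adjusted p = 0.0634) and Sgk3 (1.83, adjusted p = 0.0647) were not called. With 3 samples a group, most members under about 1 CPM could not be tested at this depth.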

Other observations

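Kcnk18, a K2P leak channel gene, varied widely between replicates of both genotypes. It had 21.7, 0.631 and 1.17 CPM in the Lsd1 KO libraries and 7.4, 26.2 and 0 CPM in the Control libraries (log2 fold change -0.51 ± 1.22, adjusted p = 0.797, edgeR's quasi-likelihood test). Without the low-count filter, 4 further members passed the threshold beside the 20: Kcnc4, Kcnh3, Kcnn4 and P2rx4.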
